A study of Mus musculus with 4 samples.

Results

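Open chromatin was described at 10 genes of the FoxO, muscle atrophy and myostatin system, namely Foxo1, Foxo3, Foxo4, Fbxo32, Trim63, Fbxo30, Fbxo21, Mstn, Fst and Klf15, in 4 skeletal muscles of the mouse. A peak was taken as belonging to one of these genes when the authors' annotation gave it that gene as its nearest transcription start site (TSS). By this rule 105 of 120839 peaks belonged to the 10 genes, and they formed 45 of the 53883 regions left after peaks that overlapped between muscles were merged. Of the muscles, extensor digitorum longus (EDL) and quadriceps (Quad) are mainly glycolytic with fast fibres. Soleus (Sol) is oxidative, and diaphragm (Dia) is the muscle of breathing. All came from wild-type mice, labelled C57BL/6 and named C57BL/6J males in the study's methods, which give an age of 7 to 8 weeks at purchase but none at harvest for these muscles. The labels list no treatment. Chromatin was assayed by ATAC-seq, in which a transposase cuts accessible DNA, on nuclei of pulverised whole muscle, so each library mixed myofibre nuclei with those of other resident cells.

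FoxO factors are held in the cytoplasm when insulin and Akt signalling is strong, and they enter the nucleus during fasting, disuse and disease, where they switch on genes of protein breakdown and autophagy. Among the best known of these are the muscle ubiquitin ligases, which mark myofibrillar and other proteins for the proteasome. Myostatin, a secreted factor made by muscle, limits muscle mass through activin receptors and Smad proteins, follistatin binds and blocks it, and glucocorticoids act on the same ligases partly through the transcription factor Klf15.

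For each muscle 1 library was analysed, whose label calls it pooled. The figure legends give 1 to 2 samples per muscle in one place and 2 for Quad and Sol in another, and how many of them each peak list combines is not given in the sources used here. No test between muscles was therefore possible, and every difference below describes these libraries. List length was 30136 peaks for EDL, 40337 for Quad, 28784 for Sol and 21582 for Dia. The score of a peak is its number of sequenced tags scaled by library size, and 1 tag was worth between 0.0956 and 0.128 score units. Scores were also expressed as percentiles within their own list, where 100 is the strongest peak. The weakest listed peak held 25 tags in Quad and between 32 and 36 tags in the other lists, so a missing peak means that none was called there and not that the site was closed. Of 9 muscle marker genes, all had a peak in at least 2 lists. Ckm, Des, Ttn and Myl1 had a promoter peak in all 4, where 40.8% of all genes named in any list did. Acta1 lacked a promoter peak in Sol, Ryr1 in Dia, Mb in Quad and Dia, and Cacna1s in Sol and Dia. Tnnt3 had a promoter peak in Quad and Sol and no peak in EDL or Dia. Of 3 endothelial markers, Kdr had a promoter peak in all 4 lists, and Pecam1 and Cdh5 in all but Dia. The satellite cell marker Pax7 had 2 peaks in EDL and 4 in Quad, with 3 in Sol and 1 in Dia, and Myf5 had 2 in Quad only. Of the leukocyte markers, Ptprc and Adgre1 had 1 peak each in EDL and in Quad and none in Sol or Dia, and Spi1 had 1 or 2 in every list. Of the fibro-adipogenic markers, Pdgfra had 1 peak in EDL and in Quad and none in the others, Col1a1 had 2, 4, 3 and 1 peaks and Dcn had 2, 2, 2 and 0 in EDL, Quad, Sol and Dia. Among liver markers Apoa2 had no peak, Alb had 2 in Dia only and Ttr had 1 in Quad only. The part of these other cells in the results below was not tested.

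The 10 genes had 29 peaks in EDL and 36 in Quad, with 24 in Sol and 16 in Dia. Per gene this was a mean of 2.90 peaks in EDL and 3.60 in Quad, with 2.40 in Sol and 1.60 in Dia, against 1.76, 2.35, 1.68 and 1.26 over all 17157 genes named in any list. The order of the 4 muscles was that of the lengths of their lists. With each list limited to its 20000 strongest peaks, the numbers were 20 in EDL and 23 in Quad, with 18 in Sol and 16 in Dia. Quad exceeded Sol in peak number for 6 of the 10 genes, against 45.7% of all genes named in any list, and fell below it for 1 gene, Fst, against 12.4%. With 20000 peaks per list, 4 of the 10 genes had more peaks in Quad, against 17.2% of all genes, and 1 gene, Fbxo30, had fewer, against 17.5%. Neither comparison was matched on the mean number of peaks per gene, which was higher for the 10 genes in every list.

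**Figure D1:**
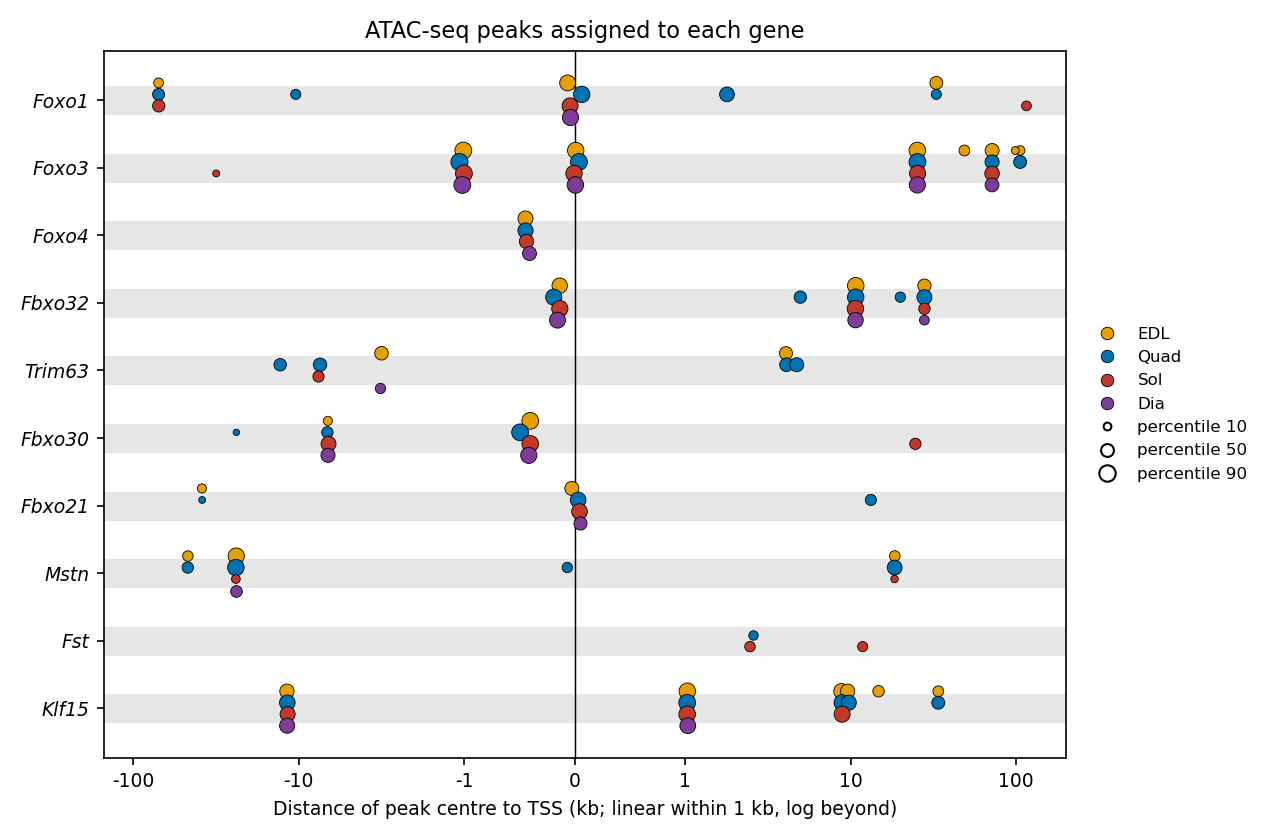
Each point is 1 ATAC-seq peak, placed by the distance of its centre to the TSS in kb on an axis that is linear within 1 kb and logarithmic beyond, with 1 row per gene, a colour per muscle and a size that grows with the score percentile. Peaks of 6 genes stack at the TSS in all 4 muscles, whereas Trim63, Fst and Klf15 have none in the promoter and Mstn has 1 in Quad only.

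Most of these genes had an open promoter in every muscle. Foxo1, Foxo3, Foxo4, Fbxo32, Fbxo30 and Fbxo21 had a promoter peak in all 4 lists, 6 of 10 genes against 40.8% of all genes named in any list. Mstn had a promoter peak in Quad alone, and Trim63, Fst and Klf15 had none in any list. The promoter peaks had a median percentile of 80.8 in EDL and 85.9 in Quad, with 86.3 in Sol and 85.7 in Dia, where the medians over all promoter peaks were 76.3, 81.3, 75.7 and 74.1. Their other peaks had medians of 52.5 in EDL and 55.7 in Quad, with 40.9 in Sol and 68.7 in Dia, against 38.3, 40.0, 38.2 and 34.1 over all peaks outside promoters. Introns held 11 of the peaks in EDL and 15 in Quad, with 6 in Sol and 5 in Dia, and intergenic sequence held 11, 13, 11 and 5. These class counts only describe the peaks, as no share over all peaks is set beside them.

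Of the 45 regions, 15 had a peak in all 4 lists, which is 33.3% (95% Wilson interval 21.4 to 47.9), against 26.9% of all merged regions. A further 18 regions, 40.0%, were listed in a single muscle, against 42.6% of all regions. The share in all 4 lists was 6 of 7 among promoter regions and 9 of 38 among the others, where all genes gave 66.1% and 16.0%. Quad alone listed 10 of the 45 regions, or 22.2%, where the share over all regions was 22.7%. Sol alone listed 5, or 11.1%, against 8.62%, EDL alone 3, or 6.67%, against 6.71%, and Dia alone 0, against 4.61%. The regions listed in EDL and Quad only were 7, or 15.6% (7.75 to 28.8), against 8.05%, and those in Sol and Dia only were 0, against 1.2%. For each pair of muscles, the regions listed in both were counted against those listed in either. EDL and Quad shared 25 of 40 regions, or 62.5%, where all regions gave 52.8%. Sol and Dia shared 15 of 25, or 60.0%, against 49.4%. Quad and Sol shared 19 of 41, or 46.3%, against 46.0%, and the remaining pairs shared between 40.5% and 55.2%. The intervals of these shares overlapped and covered counting error only, and neighbouring regions of 1 gene are not independent.

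**Figure D2:**
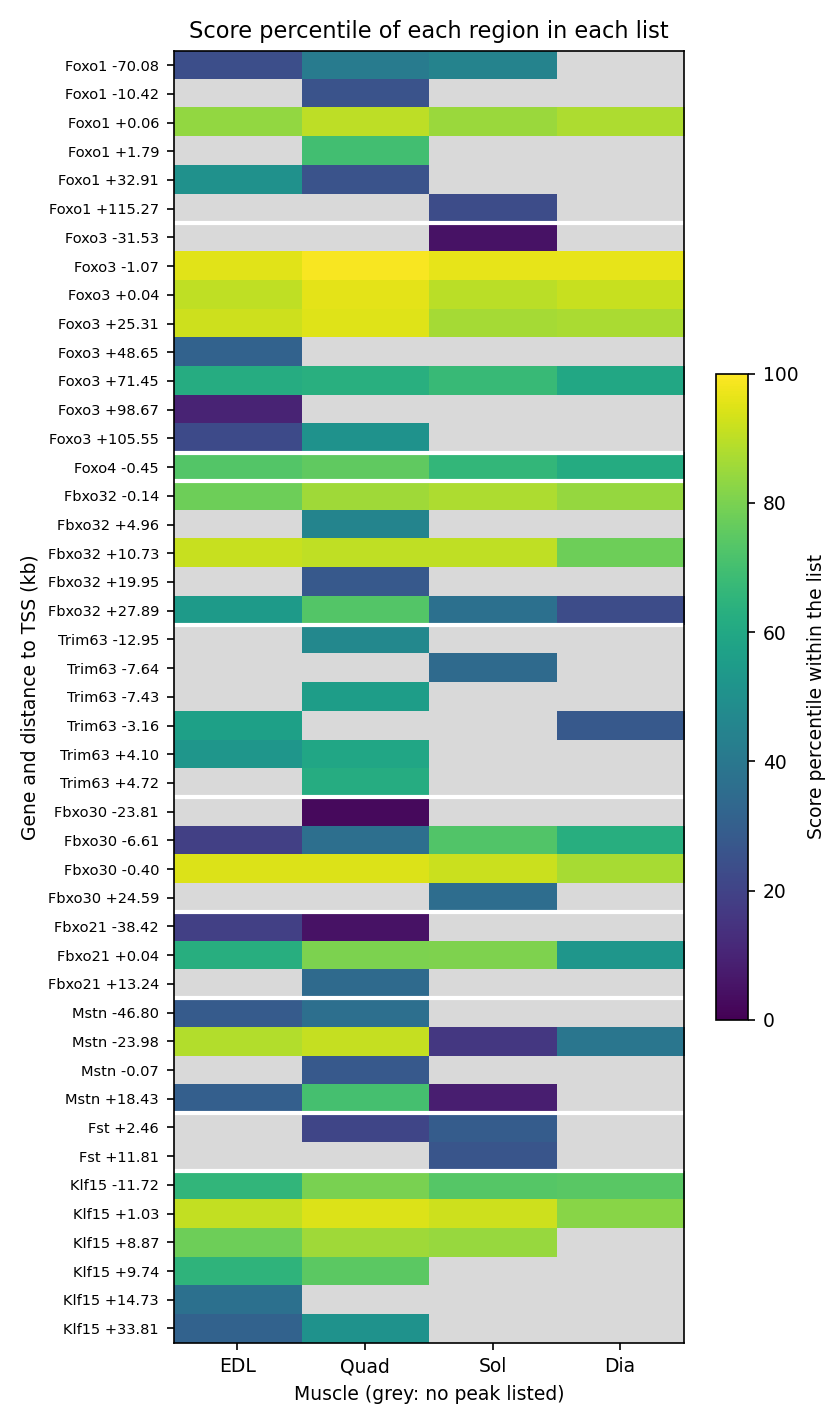
Each row is 1 of the 45 regions, named by its gene and by the distance to the TSS in kb, each column is a muscle, and the colour gives the score percentile within that muscle's list, with grey where no peak was listed. The 15 rows without grey include the promoter rows of 6 genes, and the row of the Mstn site at -23976 bp runs from percentile 16.1 in Sol to 91.3 in Quad.

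The 3 FoxO genes differed in how many sites surrounded them. Foxo1 and Foxo3 encode the main FoxO factors of muscle, and Foxo4 a related member. Foxo3 (chromosome 10, minus strand) had 21 peaks over the 4 lists, the most of the 10 genes, namely 7 in EDL and 5 in Quad, with 5 in Sol and 4 in Dia. Of its 8 regions, 4 were open in every muscle. The strongest, at -1070 bp from the TSS and classed as intergenic because it lies just beyond the promoter limit, had scores of 20.5 in EDL and 28.8 in Quad, with 21.1 in Sol and 21.8 in Dia, at percentiles 95.6, 98.9, 96.2 and 96.2. This was the highest percentile of any region of the 10 genes in every list. The Foxo3 promoter stood at percentiles 90.5 in EDL and 95.7 in Quad, with 89.7 in Sol and 91.5 in Dia, and a site in intron 2, 25314 bp downstream of the TSS, at 92.3, 95, 86.4 and 87.3. A further site in intron 2, 71450 bp downstream, was weaker at 61.8, 63.0, 67.3 and 60.0. The other 4 regions were each missing from at least 2 lists, with 2 in EDL alone, 1 in Sol alone and 1 in EDL and Quad, at percentiles between 5.06 and 50.8.

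Foxo1 (chromosome 3, plus strand) had 3 peaks in EDL and 5 in Quad, with 3 in Sol and 1 in Dia. The promoter was its only site open in all muscles, at percentiles 83.7 in EDL and 90.1 in Quad, with 84.8 in Sol and 87.6 in Dia, although its Quad peak shared less than 50% of one or both peaks with each of the others. A site in intron 1, 1790 bp downstream of the TSS, was listed in Quad alone with a score of 9.09 and percentile 69.8, the highest of any region listed in a single muscle. The nearest peaks of the other lists lay between 1619 and 1655 bp away. At -70078 bp an intergenic site was listed in EDL, Quad and Sol at percentiles 24.0, 41.8 and 44.8. The other 3 regions, in Quad alone, in Sol alone and in EDL and Quad, stood at percentiles between 23.4 and 50.7. Foxo4 (chromosome X, plus strand) had 1 peak in each list, all in the promoter, at percentiles 73.4 in EDL and 75.8 in Quad, with 66.0 in Sol and 61.4 in Dia.

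Sequences of the FoxO genes are shown for the promoter regions, without annotated exon bases, and for the sites that held the FoxO core letters GTAAACA, which were in 2 of the 45 regions. They are reference sequence of RefSeq GRCm38.p6 (mm10), read on the strand of the gene, with the core and the SMAD letters CAGACA in capitals where found on either strand. Sites are named by gene and place, at chr3:52268169-52268335 (plus strand), chr10:42276756-42276852 (minus strand), chr10:42251278-42251577 (minus strand) and chrX:101253977-101254227 (plus strand) in the order shown.
Foxo1 promoter: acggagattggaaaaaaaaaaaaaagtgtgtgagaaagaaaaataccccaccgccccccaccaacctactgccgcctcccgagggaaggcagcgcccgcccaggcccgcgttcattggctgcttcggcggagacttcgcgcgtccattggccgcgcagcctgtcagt
Foxo3 promoter: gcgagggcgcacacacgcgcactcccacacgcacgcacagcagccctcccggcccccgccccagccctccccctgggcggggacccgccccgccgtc
Foxo3 intron 2: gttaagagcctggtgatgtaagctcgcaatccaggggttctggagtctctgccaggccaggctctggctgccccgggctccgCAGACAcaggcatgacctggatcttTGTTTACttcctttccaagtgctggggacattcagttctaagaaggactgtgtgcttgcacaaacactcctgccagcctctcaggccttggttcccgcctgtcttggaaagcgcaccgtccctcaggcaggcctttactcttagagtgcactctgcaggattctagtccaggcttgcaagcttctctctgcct
Foxo4 promoter: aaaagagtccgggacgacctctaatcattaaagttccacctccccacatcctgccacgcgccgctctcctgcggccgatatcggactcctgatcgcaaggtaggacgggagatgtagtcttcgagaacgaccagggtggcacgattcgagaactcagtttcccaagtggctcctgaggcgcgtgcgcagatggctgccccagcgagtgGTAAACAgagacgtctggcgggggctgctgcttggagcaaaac

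The core in intron 2 of Foxo3 lay inside the peak of all 4 lists. In Foxo4 the core lay at the edge of the region, whole inside the wider Dia peak, across the end of the EDL and Sol peaks and beyond the end of the Quad peak. A match describes the letters and does not show that a FoxO factor was bound.

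The 4 ubiquitin ligase genes fell into different patterns. Fbxo32 encodes atrogin-1, a muscle-specific ubiquitin ligase subunit that rises in many forms of atrophy. It lies on the minus strand of chromosome 15 and had 3 peaks in EDL and 5 in Quad, with 3 in Sol and 3 in Dia. The promoter region had scores of 11.1 in EDL and 13.3 in Quad, with 14.2 in Sol and 13.8 in Dia, at percentiles 78.0, 85.9, 87.8 and 84.3. Intron 4 held a site 10732 bp downstream of the TSS, with scores of 16.5, 15.5, 15.7 and 11.9 and percentiles 91.7, 90.3, 90.6 and 78.0 in the same order. Both sites were thus strong in every list. Another site open in all muscles, in intron 6 at 27887 bp downstream, varied more. Its scores were 7.41 in EDL and 9.73 in Quad, with 6.02 in Sol and 5.44 in Dia, and its percentiles were 54.4, 73.3, 37.0 and 23.4. Its Quad score was 1.62 times the Sol score (95% interval 1.14 to 2.29 from counting error) and 1.79 times the Dia score (1.25 to 2.58), where all shared regions had median ratios of 1.10 and 1.14. Ratios as high were found in 1060 of 21764 regions shared by Quad and Sol and in 678 of 17426 shared by Quad and Dia. The remaining sites, at 4965 bp in intron 1 and 19953 bp in intron 4, were listed in Quad alone at percentiles 45.0 and 28.0.

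Trim63 encodes MuRF1, the ubiquitin ligase of thick filament proteins. It lies on the plus strand of chromosome 4 and had 2 peaks in EDL and 4 in Quad, with 1 in Sol and 1 in Dia, and none of them was in the promoter. Its 8 peaks fell into 6 regions, of which 4 were listed in a single muscle and none in more than 2. The site 4100 bp downstream in intron 2 was listed in EDL and Quad, with scores of 7.22 and 7.56 and percentiles of 52.5 and 59.0. The site at -3164 bp was listed in EDL and Dia, with scores of 7.70 and 5.74 and percentiles of 57.0 and 28.1. Quad alone listed sites at 4723 bp in intron 3, at -7435 bp and at -12949 bp, with percentiles of 62.1, 55.7 and 46.5. The Sol peak, at -7640 bp and percentile 34.6, ended 7 bp before the Quad peak at -7435 bp, and the Quad peak in intron 3 lay 457 bp from the EDL peak in intron 2, and neither pair was counted as shared. Within the gene or 50 kb of its TSS the lists held 6 peaks in EDL and 9 in Quad, with 7 in Sol and 3 in Dia, of which 2, 4, 1 and 1 were given to Trim63 and the rest to neighbouring genes.

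The sequence before the TSS of Trim63 is shown because no list had a peak there. With it are shown the Fbxo32 promoter region and the intron 1 site of Klf15 described further on. The windows are chr4:134314870-134315119 (plus strand), from the RefSeq promoter table without its exon bases, chr15:58214933-58215176 (minus strand) and chr6:90463498-90463730 (plus strand), all GRCm38.p6 from RefSeq. Capitals mark GTAAACA or ATAAACA, the E-box CAGCTG, and the glucocorticoid receptor core ACANNNTGT, in which N is any base, on either strand.
Trim63 upstream of the TSS: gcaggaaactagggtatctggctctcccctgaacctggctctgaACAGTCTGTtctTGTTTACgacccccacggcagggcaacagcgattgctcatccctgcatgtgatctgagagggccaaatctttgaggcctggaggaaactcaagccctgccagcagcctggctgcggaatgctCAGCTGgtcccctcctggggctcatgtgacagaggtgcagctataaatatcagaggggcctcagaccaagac
Fbxo32 promoter: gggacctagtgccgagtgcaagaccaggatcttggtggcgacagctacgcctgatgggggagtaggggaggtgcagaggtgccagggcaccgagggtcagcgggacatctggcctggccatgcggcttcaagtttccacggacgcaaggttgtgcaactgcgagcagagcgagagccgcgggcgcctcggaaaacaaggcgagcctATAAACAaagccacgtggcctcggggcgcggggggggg
Klf15 intron 1: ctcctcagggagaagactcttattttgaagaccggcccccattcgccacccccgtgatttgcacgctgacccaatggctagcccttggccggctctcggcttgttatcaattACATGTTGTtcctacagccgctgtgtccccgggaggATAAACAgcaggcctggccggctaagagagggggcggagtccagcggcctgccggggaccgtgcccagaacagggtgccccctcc

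The Trim63 window held 1 match each of the FoxO core, the E-box and the glucocorticoid receptor core. In the promoter table, which holds 250 bases before and 50 bases after each gene's start, 3.65% of 32851 promoters had the FoxO core, 16.3% the E-box and 6.85% the glucocorticoid receptor core, and 7 of the 10 genes had an entry. In Fbxo32 the ATAAACA letters lay inside the peaks of EDL, Sol and Dia, and outside the Quad peak, which was centred 190 bp upstream of the TSS.

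Fbxo30 encodes MUSA1, a ubiquitin ligase subunit of atrophying muscle that is held down by BMP signalling. It lies on the plus strand of chromosome 10 and had 2 peaks in EDL and 3 in Quad, with 3 in Sol and 2 in Dia. The promoter was strong in every list, with scores of 19.5 in EDL and Quad, 16.6 in Sol and 14.9 in Dia, at percentiles 94.8, 94.6, 92.0 and 87.1. An intergenic site upstream, at -6609 bp, stood higher in Sol and Dia than in EDL and Quad. Its scores were 4.71 in EDL (95% Poisson interval 3.49 to 6.23), 5.51 in Quad (3.99 to 7.42), 10.1 in Sol (8.29 to 12.3) and 9.06 in Dia (7.29 to 11.1), and the percentiles were 18.8, 36.4, 72.7 and 62.9. The Sol score was 2.14 times the EDL score (1.51 to 3.07) and 1.83 times the Quad score (1.27 to 2.68), and 72 of 20584 and 200 of 21764 shared regions had a ratio as far or farther towards Sol. The Dia score was 1.92 times the EDL score (1.34 to 2.78) and 1.64 times the Quad score (1.13 to 2.42), with 53 of 16685 and 134 of 17426 shared regions as far towards Dia. The Quad and Sol peaks shared only 92 bp, less than 50% of either, so the ratio of these muscles compares partly different sequence. Under 50% reciprocal overlap they stayed 1 site only through the EDL and Dia peaks. Sol and Dia did not separate here, with a ratio of 1.11 (0.834 to 1.49). The remaining sites were listed once, at -23812 bp in Quad, at percentile 2.35 and in sequence of which 93.7% is repeat-masked, and at 24589 bp in Sol, at percentile 35.8.

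Fbxo21 encodes SMART, another ubiquitin ligase subunit linked to atrophy. It lies on the plus strand of chromosome 5 and had 2 peaks in EDL and 3 in Quad, with 1 in Sol and 1 in Dia. Its promoter had scores of 8.37 in EDL and 11.4 in Quad, with 11.9 in Sol and 7.76 in Dia, at percentiles 62.5, 80.4, 80.8 and 52.5. Sol stood above EDL by a ratio of 1.42 (1.07 to 1.89) and above Dia by 1.53 (1.15 to 2.06), whereas Quad and Sol had a ratio of 0.958 (0.722 to 1.27). Such ratios were not rare, as 1447 of 20584 regions shared with EDL and 1063 of 16662 shared with Dia were as far or farther towards Sol. A site at -38425 bp, listed in EDL and Quad at percentiles 18.8 and 4.70, lies in intron 21 of Nos1, and a site at 13244 bp in intron 6 was listed in Quad alone at percentile 34.4.

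Klf15, a transcription factor that glucocorticoids induce in muscle, lies on the plus strand of chromosome 6 and had 6 peaks in EDL and 5 in Quad, with 3 in Sol and 2 in Dia. None was in the promoter, since the peak nearest the TSS lay in intron 1, 1030 bp downstream. That site was strong in all muscles. Its scores were 16.0 in EDL and 19.7 in Quad, with 17.0 in Sol and 13.1 in Dia, and its percentiles were 90.9, 94.9, 92.4 and 82.3. It held both the glucocorticoid receptor core and ATAAACA inside the peak of every list. A site in intron 2, 8874 bp downstream, stood at percentiles 78.0 in EDL, 85.9 in Quad and 84.5 in Sol, and the nearest Dia peak was 7539 bp away. No other region missing from only 1 list reached these percentiles. At 9737 bp downstream a site was listed in EDL and Quad at percentiles 65.1 and 74.6, and the nearest Sol peak was 505 bp away. The site at -11725 bp was open in all muscles at percentiles 65.8, 79.9, 73.7 and 74.6. EDL alone listed a site in the 3′ UTR at percentile 37.0, and a site at 33813 bp, inside Aldh1l1, was listed in EDL and Quad at percentiles 31.6 and 50.8.

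Mstn, which encodes myostatin, lies on the plus strand of chromosome 1 and had 3 peaks in EDL and 4 in Quad, with 2 in Sol and 1 in Dia. Its intergenic site at -23976 bp (chr1:53037554-53037894) had the widest spread of percentile among regions open in all muscles. The scores were 14.6 in EDL (12.4 to 17.1), 16.3 in Quad (13.6 to 19.4), 4.59 in Sol (3.38 to 6.08) and 6.55 in Dia (5.05 to 8.34), and these are 152, 127, 48 and 65 tags. The EDL peak lay farther downstream and shared only 73 of its 209 bp with the Quad peak, 76 with the Sol peak and 101 with the Dia peak. When at least 50% of both peaks had to overlap, it was a site of its own, the site was no longer open in all muscles, and the EDL ratios below could not be formed, while Quad, Sol and Dia still shared it. The percentiles were 88.6 in EDL and 91.3 in Quad, with 16.1 in Sol and 39.2 in Dia. EDL and Quad were thus high, Sol and Dia were low, and the intervals of these pairs did not overlap. The Quad score was 3.55 times the Sol score (2.53 to 5.06), and only 2 of 21764 shared regions, this one included, had a ratio as high. The EDL score was 3.18 times the Sol score (2.29 to 4.50), with 3 of 20584 regions as high. Against Dia the ratios were 2.49 for Quad (1.83 to 3.41), with 61 of 17426 regions as high, and 2.23 for EDL (1.66 to 3.03), with 92 of 16685. EDL and Quad had a ratio of 0.896 (0.703 to 1.14), and Sol and Dia one of 0.701 (0.472 to 1.03). A region absent from a list has no ratio, so these ranks hold among regions listed in both muscles.

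The other 3 Mstn sites had lower scores, and none was listed in Dia. The site at 18435 bp downstream had scores of 5.39 in EDL, 9.22 in Quad and 4.11 in Sol, at percentiles 30.1, 70.5 and 8.21, and the nearest Dia peak was 42156 bp away. Its Quad score was 2.24 times the Sol score (1.52 to 3.35), with 81 of 21764 regions as high, while the EDL and Sol scores had a ratio of 1.31 (0.866 to 2.0). The site at -46802 bp, within the annotated gene 1700019D03Rik, was listed in EDL and Quad at percentiles 28.6 and 36.4. The promoter peak, at -67 bp, was listed in Quad alone with a score of 4.99, or 39 tags, at percentile 28.0. With 20000 peaks per list, Mstn kept 1 peak in EDL and 2 in Quad, with 0 in Sol and 1 in Dia.

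The Mstn and Fbxo30 distal sites are shown because their percentiles had the widest range among regions open in all 4, and were chosen after their values were seen. They are the first 300 bases of each region, chr1:53037554-53037853 (plus strand) and chr10:11274521-11274820 (plus strand), with the Mstn promoter peak without its exon bases, chr1:53061479-53061639 (plus strand), from RefSeq GRCm38.p6. Capitals mark a MEF2 site, ACANNNTGT and CAGACA on either strand.
Mstn distal site: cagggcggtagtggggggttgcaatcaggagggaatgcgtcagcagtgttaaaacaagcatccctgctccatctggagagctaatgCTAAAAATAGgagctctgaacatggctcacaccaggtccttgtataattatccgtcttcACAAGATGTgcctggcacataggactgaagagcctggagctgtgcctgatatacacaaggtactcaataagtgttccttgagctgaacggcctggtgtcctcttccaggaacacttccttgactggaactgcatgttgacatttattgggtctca
Mstn promoter: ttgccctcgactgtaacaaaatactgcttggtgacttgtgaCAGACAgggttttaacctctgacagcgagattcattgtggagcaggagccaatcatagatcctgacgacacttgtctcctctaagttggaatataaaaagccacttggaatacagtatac
Fbxo30 distal site: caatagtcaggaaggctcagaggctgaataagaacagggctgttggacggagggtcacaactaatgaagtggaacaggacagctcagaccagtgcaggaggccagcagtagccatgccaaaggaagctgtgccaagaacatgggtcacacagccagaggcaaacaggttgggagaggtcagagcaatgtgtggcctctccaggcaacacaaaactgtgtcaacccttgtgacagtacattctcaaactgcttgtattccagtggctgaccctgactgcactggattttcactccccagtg

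In the Mstn distal site the glucocorticoid receptor core lay inside the peaks of all 4 lists. The MEF2 match lay inside those of Quad, Sol and Dia and before the start of the EDL peak at chr1:53037686-53037894. The Fbxo30 site held none of the letters searched.

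**Figure D3:**
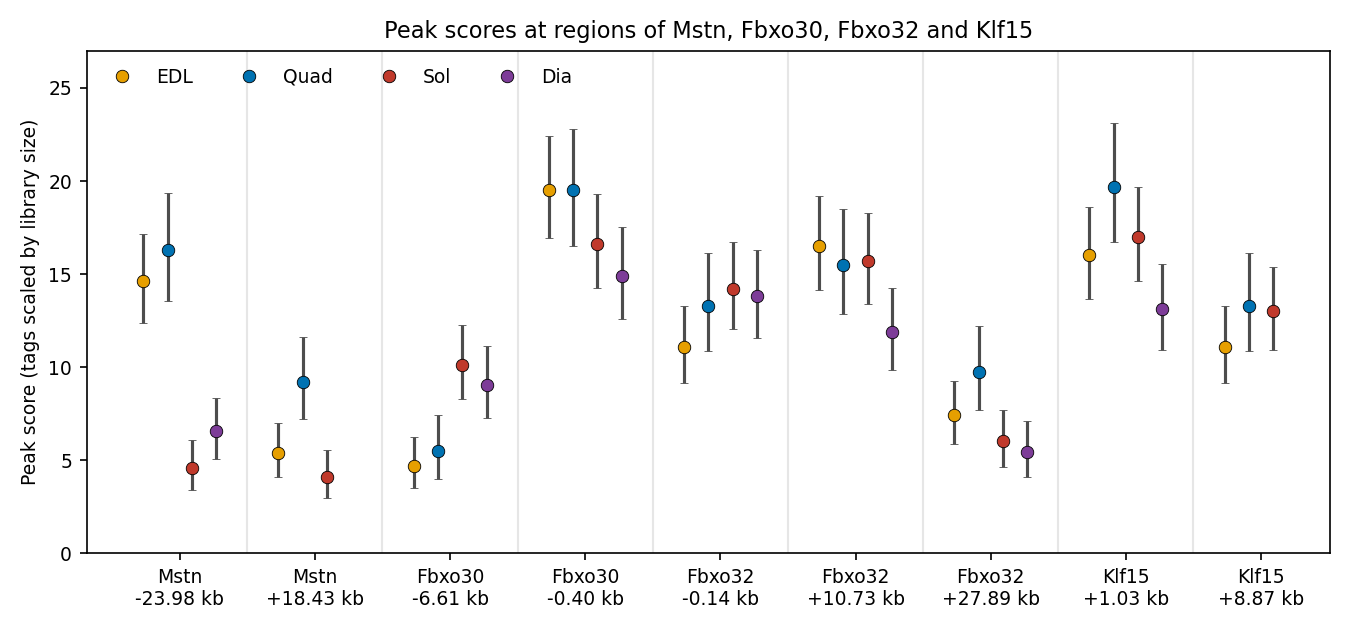
Peak scores (tags scaled by library size) at 9 regions of Mstn, Fbxo30, Fbxo32 and Klf15, named by distance to the TSS, with a colour per muscle and bars for 95% Poisson intervals of the tag number, which cover counting error only. At the Mstn site at -23976 bp EDL and Quad sit at 14.6 and 16.3 above Sol and Dia at 4.59 and 6.55, at the Fbxo30 site at -6609 bp Sol and Dia sit higher, and the promoters of Fbxo30 and Fbxo32 differ less.

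Fst encodes follistatin, the secreted inhibitor of myostatin and activins. It lies on the minus strand of chromosome 13 and had 1 peak in Quad, 2 in Sol and 0 in EDL and Dia, the fewest of the 10 genes. The site in exon 2, 2465 bp downstream of the TSS, was listed in Quad at percentile 20.8 and in Sol at 29.3. The other, 11814 bp downstream, was listed in Sol at percentile 26.2. None of the 3 peaks was among the 20000 strongest of its list.

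Scores of the same region were then compared for each of the 6 pairs of muscles, after dividing by the median ratio over all regions that the pair shared. A region was counted when the scores still differed by 2-fold or more. Between Quad and Sol this held for 3 of the 19 shared regions of the 10 genes, against 1.38% of all shared regions. These were the Mstn sites at -23976 bp and 18435 bp, higher in Quad, and the Fbxo30 site at -6609 bp, higher in Sol. Between EDL and Sol it held for 2 of 18, against 1.05%, and these were the same distal sites of Mstn and Fbxo30. The Mstn site at -23976 bp was the 1 region of 16 between EDL and Dia, against 1.35%, and the 1 of 15 between Quad and Dia, against 1.06%. Between EDL and Quad it was 0 of 25, against 0.456%, and between Sol and Dia 0 of 15, against 0.678%. The Fbxo30 site lay close to the limit, at -1.01 for Quad against Sol and -1.08 for EDL against Sol on the log2 scale, and just short of it at -0.98 for EDL against Dia. The comparisons share libraries, so these counts are not independent. On the log2 scale the other regions shared by Quad and Sol lay within 0.56 of the median, and no promoter region passed 2-fold in any pair.

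**Figure D4:**
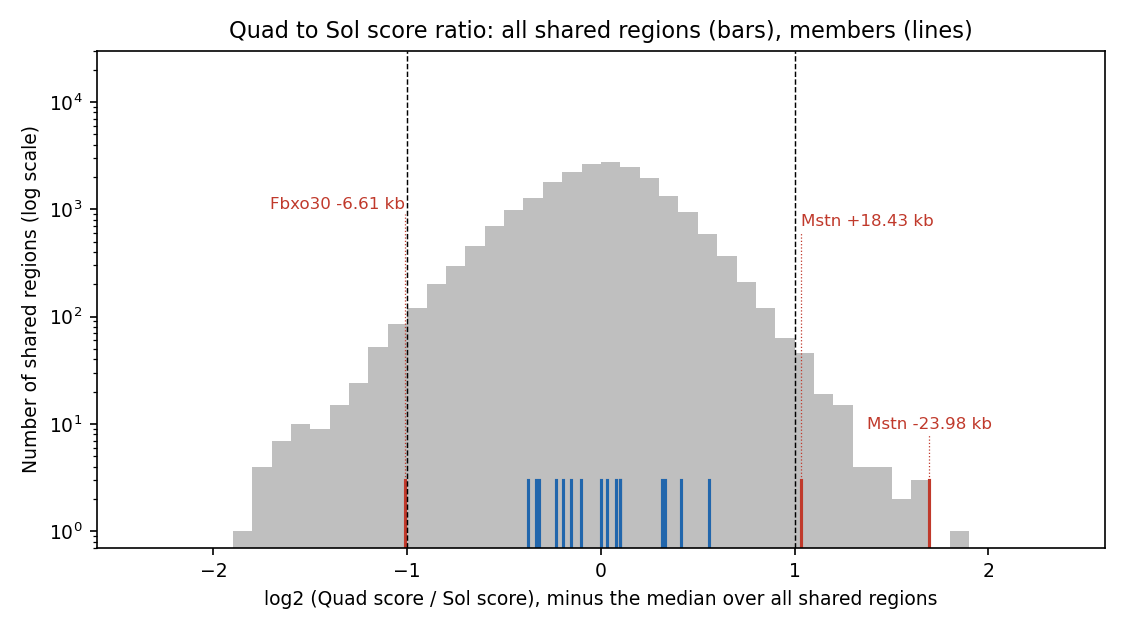
Grey bars count the 21764 regions listed in both Quad and Sol by the log2 ratio of their scores minus the median, on a log axis, dashed lines mark 2-fold, and short lines mark the 19 regions of the 10 genes. The Mstn site at -23976 bp lies at 1.69 near the right end, the Mstn site at 18435 bp and the Fbxo30 site at -6609 bp lie just past 2-fold, and the others lie within 0.56 of 0.

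Letters of 5 binding motifs were searched on both strands of the peaks, and in the 45 regions no match overlapped one of another motif. The E-box was in 12 of the 45 regions, the glucocorticoid receptor core in 6, the SMAD letters in 6, MEF2 in 3 and the FoxO core in 2. The E-box was in 17.2% of the peaks of the 10 genes in EDL and 25.0% in Quad, with 20.8% in Sol and 12.5% in Dia, against 20.8%, 19.1%, 20.3% and 19.5% of all peaks. The SMAD letters had shares of 10.3%, 13.9%, 8.33% and 6.25% against 17.4%, 16.4%, 17.5% and 17.3%. These were lower in every list, but each 95% interval contained the share over all peaks. Some of the same regions were counted in several lists, so the lists are not independent. MEF2 was in 3.45%, 5.56%, 8.33% and 6.25%, against 4.92%, 3.92%, 4.85% and 3.48%. The FoxO core was in 1 peak of the 10 genes in EDL, Quad and Sol and in 2 in Dia, or 3.45%, 2.78%, 4.17% and 12.5%, against 3.0%, 2.46%, 2.76% and 3.26% of all peaks. When ATAAACA was admitted too, a choice made after the sequences were seen, 7 regions matched, and the shares were 13.8% in EDL and 11.1% in Quad, with 16.7% in Sol and 25.0% in Dia, against 5.89%, 4.88%, 5.32% and 6.02%. The glucocorticoid receptor core was in 17.2%, 11.1%, 12.5% and 18.8% of the peaks, against 6.49%, 5.84%, 6.26% and 5.70%, and 3 of its 6 regions belonged to Klf15. Its matches lay outside promoters except in Fbxo21, and all peaks outside promoters gave 8.49%, 7.27%, 8.28% and 8.18%. The Klf15 intron 1 site and the Mstn distal site were counted in all 4 lists. The 95% intervals of these shares were wide, from 5.50 to 30.6% for the wider FoxO letters in EDL. For the glucocorticoid receptor core they were 7.60 to 34.5% in EDL and 4.41 to 25.3% in Quad, with 4.34 to 31.0% in Sol and 6.59 to 43.0% in Dia. These intervals count promoter peaks of the 10 genes too, so they cannot be set against the shares outside promoters. The share of the 10 genes outside promoters was not computed. Against the share over all peaks, the interval lay above it for EDL and Dia and contained it for Quad and Sol. With windows of 200 bp in place of the peak width, every interval contained the share over all peaks.

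The genes around the 10 were covered by 7 lists with 89 genes, none of them among the 10. Of these 89 genes, 51 or 57.3% had a promoter peak in all 4 lists, against 40.8% of all genes named in any list. A peak of some kind in every list was found for 73, against 65.1% of all genes named in any list. Of the 89, 5 had no peak in any list, and such genes are left out of both shares over all genes. Among the upstream regulators and partners of FoxO the promoter share was 11 of 15, among ubiquitin ligases and deubiquitinases 10 of 15, among autophagy genes 9 of 15 and among other FoxO targets 7 of 10. The BMP pathway had 4 of 8 and the glucocorticoid and Klf15 genes 3 of 6. In the myostatin and activin pathway the share was 7 of 20. No peak in any list was given to Atg4b, Gdf11, Acvr1c, Wfikkn1 or Gdf5.

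With 20000 peaks per list, Quad exceeded Sol in peak number for 27 of the 89 genes and fell below it for 13. The shares over all genes named in any list were 17.2% and 17.5%. The myostatin and activin list had 7 of 20 with more and 0 with fewer, against the same shares. These comparisons were not matched on peak number, and a gene with more peaks has more room for unequal numbers. The shares over all genes also include genes with no peak left among the 20000. The split of more and fewer was 6 and 3 of 15 FoxO regulators and partners and 4 and 3 of 15 ligases and deubiquitinases. It was 4 and 1 of 15 autophagy genes and 4 and 3 of 10 other FoxO targets. For 8 BMP genes it was 1 and 1, and for 6 glucocorticoid and Klf15 genes 1 and 2. The 20 myostatin and activin genes had 33 peaks in EDL and 35 in Quad, with 22 in Sol and 26 in Dia. Much of the difference between Quad and Sol came from Acvr2a and Smad3. Acvr2a, a receptor for myostatin and activins, had 7 peaks in EDL and 7 in Quad, with 2 in Sol and 4 in Dia, and Smad3, which carries their signal, had 6, 5, 2 and 2. Foxo6, a further FoxO gene, had 6, 8, 3 and 3 peaks in the same order, and Ddit4, a stress-induced inhibitor of mTOR signalling, had 8, 8, 5 and 3. Irs2, an adaptor of the insulin receptor, had 6, 4, 2 and 4, Pik3ca, a catalytic subunit of PI3-kinase, 1, 3, 2 and 0, and the kinase gene Sgk1 5, 5, 5 and 2. Sesn3, a sestrin that restrains mTOR, ran the other way with 2, 1, 4 and 6. Bcl6, a transcriptional repressor, had 1, 2, 3 and 0, and Nr3c1, the glucocorticoid receptor gene, had 11, 9, 13 and 7. Over the full lists Akt1, Atg12 and Atg5 had 1 peak in every muscle, as Foxo4 did, and Pdpk1 had 2, 3, 3 and 2, as Fbxo30 did.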

How the data were processed

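ATAC-seq was done on about 30 mg of frozen muscle powder per sample, and 1 library each of EDL, Quad, Sol and Dia was analysed. According to the labels and the study's methods, the authors aligned 42-bp read pairs to mm10 with Bowtie2 2.2.6 at default settings, kept 1 tag per start position, called fixed-width peaks in each library with HOMER and annotated each to the nearest TSS, with promoters from 1 kb upstream to 100 bp downstream. The deposited score of a peak is the authors' tag number scaled by library size. Removal of mitochondrial reads and the shift of read ends are not given in the sources used here.

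Tag numbers were inferred from the step between scores. Below a score of 10, 100% of the scores were whole multiples of the step (tolerance 0.0055 score units). If HOMER scaled to 10 M tags, its default, depth was 78.1 M (mega) tags for Quad, 99.3 M for Dia, 104 M for EDL and 105 M for Sol. Peaks that overlapped by at least 1 bp were merged, and a region carries the distance and class of its peak with the highest percentile. Intervals are 95% Poisson for scores, Wilson for shares and conditional exact for ratios, and cover counting error only. The inference of the score step, the merging of peaks and the motif search were tested on simulated data, and the other steps were not (Python 3.11.15, pandas 2.3.3, SciPy 1.17.1, pysam 0.24.0).

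The 10 genes, pathway lists and motifs were chosen with earlier results of these data known, and the ratio comparison with its 2-fold limit was added after the lists were seen. By rule, the text names the 5 regions listed in a single muscle with the highest percentile and the 5 in all 4 lists with the widest range. It names pathway genes with no peak, with peak numbers 3 or more apart between lists at 20000 peaks each, or, up to 3 per gene, with the same 4 peak numbers as 1 of the 10.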

Additional observations from a re-analysis of the deposited data

How the results depend on the processing

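No paired analysis was possible because each muscle had a single list and no test was made between muscles, and no replicate could be left out either. Of 80 values recomputed under other settings, 75 stayed within 1.5 times the count or within the interval of the share first given, and 5 moved. For shares this limit was loose, because the intervals were wide. With ATAAACA admitted, the FoxO letters in EDL went from 3.45% to 13.8% and counted as unmoved. The score ratios were not among the 80 values. With the 20000 strongest peaks of each list the number of Quad peaks of the 10 genes fell from 36 to 23. With the upper 50% of each list the numbers were 19 in EDL, 23 in Quad and 14 in Sol, and the share of regions common to Sol and Dia was 92.9%. Both settings drop the weaker peaks by construction. Counting all peaks in a gene or within 50 kb of its TSS gave 35 for EDL, 44 for Quad, 36 for Sol and 24 for Dia. Under 50% reciprocal overlap 25.5% of regions were in all 4 lists, the Mstn site at -23976 bp and the Foxo1 promoter no longer among them, and when peaks within 500 bp counted as shared 34.9% were. The 6 genes with a promoter peak in all lists were also 6 under every setting tried for that count. A site with fewer than 25 to 36 tags, the weakest in each list, could not be seen here, and depth differed most between Quad and the others.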
